A study of Mus musculus with 35 samples.

Results

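The genes described here are 7 members of the YAP and TAZ mechanosensing pathway: the co-activators Yap1 and Wwtr1 (the gene for TAZ), the DNA-binding partner Tead1, the pathway inhibitor Amotl2, and the target genes Ctgf, Cyr61 and Ankrd1. They were chosen by name, as 7 of the 22830 gene symbols counted in mouse wounds, and where a symbol had several RefSeq rows in the first table the row with the largest total was read. All 7 passed the filter on low counts in every comparison.

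YAP and TAZ have no DNA-binding domain of their own. In cells on a soft matrix or in a dense sheet, the Hippo kinases MST1/2 and LATS1/2 phosphorylate them and they are held in the cytoplasm and degraded, whereas tension through integrins and actin lets them enter the nucleus and bind TEAD factors. Motin proteins such as AMOTL2 bind YAP and hold it back, and the Amotl2 gene is itself switched on by YAP. Ctgf (CCN2) and Cyr61 (CCN1) encode secreted matricellular proteins that bind integrins, and Ankrd1 encodes a nuclear and sarcomeric ankyrin repeat protein. These 3 target genes are widely read as a transcript measure of YAP and TAZ activity, and in skin the pathway is known for its parts in keratinocyte proliferation and in fibroblast matrix production. The RNA levels below measure neither the phosphorylation nor the location of the YAP and TAZ proteins.

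RNA was sequenced from the centre of full-thickness excisional wounds on the back of adult mice in 8 groups. WT mice were Cre-negative Col5a1 fl/fl littermates, and Col5a1CKO mice carried the same floxed alleles with Col1a2CreERT, a tamoxifen-inducible Cre driven by a Col1a2 enhancer in fibroblasts, so that Col5a1, a chain of type V collagen, was deleted in fibroblasts. All animals, WT included, received tamoxifen before and after wounding. A first table held 7 WT and 7 Col5a1CKO wounds at day 14, 3 day 14 Col5a1CKO wounds with WT fibroblasts injected into the dermis (Col5a1CKO + fibroblasts), and 3 WT and 3 Col5a1CKO wounds at day 19. A second table held 4 wounds each at day 14 from WT mice given vehicle, Col5a1CKO mice given vehicle and Col5a1CKO mice given cilengitide, an inhibitor of αv integrins. The treatment label of the 3 day 19 Col5a1CKO wounds names WT fibroblasts and that of the 3 fibroblast-titled wounds does not; the titles were followed. The study's methods count n as separate biological replicates, but the labels do not tie each wound to an animal, so p-values measure the spread between these samples.

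Each wound of the first table had 15043531 to 35700337 counts, and each of the second 51211600 to 68266760. The wounds of the first table fell into 2 sets by the level of GC-rich against GC-poor genes, with a gap of 1.54 (log2) between them. In the lower set were, of the day 14 wounds, a to d of WT and a to e of Col5a1CKO, and all other wounds made up the upper set, so that all day 19 and fibroblast wounds were in 1 set. In the upper set at day 14 the 3 WT wounds had Y-linked RNA and the 2 Col5a1CKO and 3 Col5a1CKO + fibroblasts wounds had none, so sex and genotype cannot be told apart there. Col5a1 itself ranged from 347 to 2386 CPM in day 14 WT wounds and from 170 to 663 CPM in Col5a1CKO wounds (log2 difference -1.43, adjusted p = 0.0756, edgeR), with overlap. Summed over 8 keratinocyte markers, none of them at 0 in any wound, day 14 WT wounds had 30592 to 154712 CPM and Col5a1CKO wounds 39.5 to 58630 CPM, and keratinocyte, fibroblast and endothelial RNA was found in all wounds. In bulk tissue, fewer cells of a type and less RNA per cell cannot be told apart.

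On NCBI37/mm9, the build of the counts, Yap1 lies at chr9:7931999-8004596 and Amotl2 at chr9:102619002-102635748, Wwtr1 at chr3:57259571-57379832 and Cyr61 at chr3:145309935-145312949. Ctgf lies at chr10:24315248-24318489, Ankrd1 at chr19:36186455-36194334 and Tead1 at chr7:119822832-120050319. Ctgf, Amotl2 and Tead1 are on the plus strand and the other 4 on the minus strand. Promoter sequence of RefSeq (GRCm38.p6, 250 bases before the start) matched 5 of the 7 members, all but Ctgf and Tead1. The letters GGAATG, the core of the site that TEAD factors bind, were searched on both strands together with the AP-1 letters TGANTCA and the SRF CArG box. Of 32841 mouse promoters of the same length, 12.6% held the TEAD letters, 6.75% the AP-1 letters and 1.47% a CArG box. All 5 member promoters held the TEAD letters and none held the other 2 motifs. The 3 promoters of genes known as YAP and TAZ targets and that of Yap1 are shown 5′ to 3′ on the gene's strand, at chr3:145649986-145650235 (minus) for Cyr61, chr19:36119845-36120094 (minus) for Ankrd1, chr9:102717554-102717803 (plus) for Amotl2 and chr9:8004597-8004846 (minus) for Yap1, with GGAATG or its reverse complement CATTCC in capitals.
Cyr61: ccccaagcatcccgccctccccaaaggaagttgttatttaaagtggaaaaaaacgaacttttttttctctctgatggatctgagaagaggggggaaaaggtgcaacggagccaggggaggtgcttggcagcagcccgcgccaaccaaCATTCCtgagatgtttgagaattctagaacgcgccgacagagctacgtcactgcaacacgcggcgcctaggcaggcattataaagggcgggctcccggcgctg
Ankrd1: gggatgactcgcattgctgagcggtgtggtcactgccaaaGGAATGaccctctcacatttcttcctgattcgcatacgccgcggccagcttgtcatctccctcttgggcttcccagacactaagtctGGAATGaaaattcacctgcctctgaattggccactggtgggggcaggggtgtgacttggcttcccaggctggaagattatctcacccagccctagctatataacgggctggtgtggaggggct
Amotl2: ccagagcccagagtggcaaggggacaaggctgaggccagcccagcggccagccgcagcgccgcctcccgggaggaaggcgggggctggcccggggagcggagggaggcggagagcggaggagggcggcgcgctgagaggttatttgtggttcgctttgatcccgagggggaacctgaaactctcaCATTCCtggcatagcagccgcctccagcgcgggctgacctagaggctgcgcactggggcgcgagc
Yap1: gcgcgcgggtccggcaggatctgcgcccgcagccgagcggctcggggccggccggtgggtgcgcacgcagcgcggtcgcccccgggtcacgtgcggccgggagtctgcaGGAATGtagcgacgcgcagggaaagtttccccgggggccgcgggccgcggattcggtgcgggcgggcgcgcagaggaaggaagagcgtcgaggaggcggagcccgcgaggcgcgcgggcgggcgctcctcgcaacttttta
Ankrd1 held the letters at 2 places, 210 and 123 bases before the start, and Amotl2 held them nearest to the start, at 65 bases. A match describes the letters of these windows and does not show that a factor binds there.

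**Figure D1:**
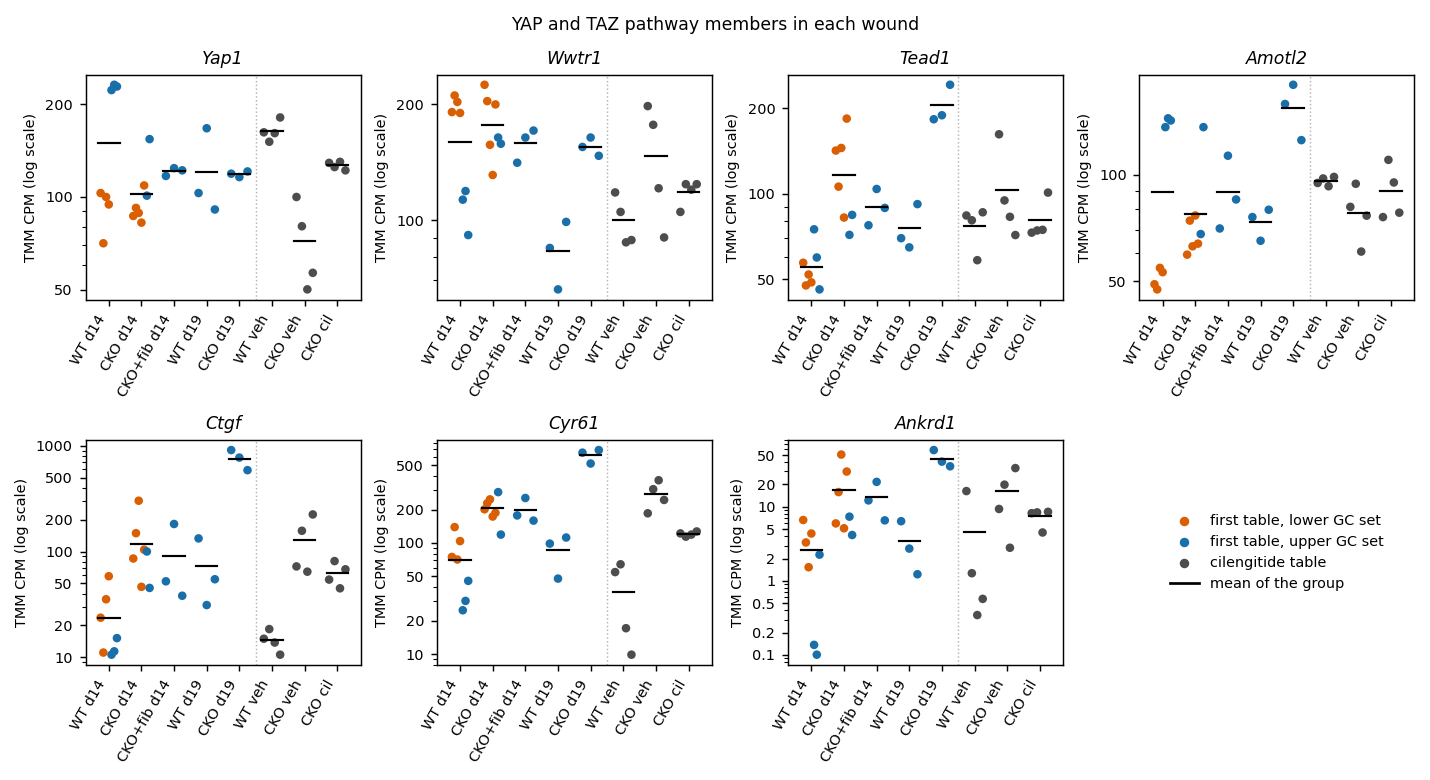
Level of each member in each wound, in TMM-scaled CPM (log axis), by group; points are wounds, coloured by table and GC set, and bars are group means. Within the first table Ctgf, Cyr61 and Ankrd1 are highest in the 3 day 19 Col5a1CKO wounds by group mean, and Yap1 separates into 222 to 231 CPM and 70.8 to 103 CPM within the day 14 WT wounds.

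The first comparison asked how the members differed between Col5a1CKO and WT wounds at day 14. The target genes Ctgf and Cyr61 and the TEAD factor Tead1 rose: Ctgf 5.01-fold, Cyr61 2.94-fold and Tead1 2.11-fold. Yap1 and Wwtr1, the co-activators themselves, did not pass the test. Thus 3 of 7 members were called (adjusted p under 0.05 in the edgeR quasi-likelihood fit, adjusted over 14367 genes by Benjamini-Hochberg), all of them higher, beside 10.8% of all genes tested (6.45% higher and 4.34% lower). The groups overlapped for every member, while 2.31% of genes were higher and 1.72% lower in Col5a1CKO wounds without overlap.

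Levels are given as CPM, the counts of a gene scaled to a common library size. Ctgf ranged from 10.6 to 58.4 CPM in 7 WT wounds (median 15.2) and from 45.3 to 302 CPM in 7 Col5a1CKO wounds (median 100). The highest WT wound, replicate d, lay above the 2 lowest Col5a1CKO wounds, d and g, so the groups overlapped. The fitted log2 difference was 2.33 ± 0.51 (SE, adjusted p = 0.0122, edgeR). Cyr61 ranged from 24.8 to 139 CPM in WT wounds (median 71.0) and from 119 to 287 CPM in Col5a1CKO wounds (median 201). Only WT replicate b exceeded the lowest Col5a1CKO wound, g, and the difference was 1.55 ± 0.37 (log2, SE, adjusted p = 0.0169, edgeR). Ankrd1, the least abundant member, ranged from 0.101 to 6.63 CPM in WT wounds (median 2.26) and from 4.16 to 50.7 CPM in Col5a1CKO wounds (median 7.36). In WT replicates e and f its level rested on 3 counts each, and its difference of 2.67 ± 0.86 did not pass the test (log2, SE, adjusted p = 0.0605, edgeR).

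Tead1, which carries YAP and TAZ onto DNA, ranged from 46.1 to 75.0 CPM in WT wounds (median 52.0) and from 71.7 to 184 CPM in Col5a1CKO wounds (median 106). WT replicate e alone lay above the lowest Col5a1CKO wound, f, and the difference was 1.08 ± 0.22 (log2, SE, adjusted p = 0.00937, edgeR). Yap1 ranged from 70.8 to 231 CPM in WT wounds (median 103) and from 82.6 to 154 CPM in Col5a1CKO wounds (median 92.2). The Col5a1CKO wounds lay inside the WT range, and the difference was -0.53 ± 0.28 (log2, SE, adjusted p = 0.241, edgeR). Wwtr1 ranged from 91.4 to 211 CPM in WT wounds (median 190) and from 131 to 225 CPM in Col5a1CKO wounds (median 164), with a difference of 0.14 ± 0.23 (log2, SE, adjusted p = 0.729, edgeR). Amotl2 ranged from 47.5 to 144 CPM in WT wounds (median 54.6) and from 59.5 to 136 CPM in Col5a1CKO wounds (median 68.0), also with overlap (-0.18 ± 0.32, log2, SE, adjusted p = 0.754, edgeR).

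Per transcript length, levels are given as RPKM, the counts per kilobase of transcript divided by the wound's total over all RefSeq rows, and within each GC set. In the lower set Cyr61 led in both genotypes, at a mean of 33.3 RPKM in WT wounds (n = 4) and 72.3 RPKM in Col5a1CKO wounds (n = 5), followed in WT wounds by Wwtr1 at 29.1 and Yap1 at 15.3 and in Col5a1CKO wounds by Ctgf at 40.8 and Wwtr1 at 27.1. In the upper set Yap1 led in WT wounds at 34.8 RPKM (n = 3), above Amotl2 at 21.5, Wwtr1 at 14.5 and Cyr61 at 10.6, and Cyr61 led in Col5a1CKO wounds at 76.9 RPKM (n = 2). Tead1 and Ankrd1 had less RNA per length than Yap1, Wwtr1 and Cyr61 in both sets and genotypes.

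The GC sets moved with several members within a single genotype. Among day 14 WT wounds, Yap1 was at 70.8 to 103 CPM in replicates a to d and at 222 to 231 CPM in e to g, and Amotl2 was at 47.5 to 54.6 CPM and 136 to 144 CPM in the same sets. Wwtr1 went the other way, at 190 to 211 CPM in a to d and 91.4 to 119 CPM in e to g. Cyr61 was also lower in e to g, at 24.8 to 45.6 CPM against 71.0 to 139 CPM, whereas Tead1 overlapped between the sets. The GC content of the transcripts was 43.9% for Wwtr1, 46.5% for Tead1, 46.8% for Ankrd1, 50.3% for Yap1, 51.7% for Ctgf, 52.8% for Cyr61 and 56.7% for Amotl2, so the direction between the sets did not follow it in every member. In those 3 WT wounds, e to g, the keratinocyte markers summed to 102219 to 154712 CPM and the fibroblast markers to 8646 to 9918 CPM. With the presence of Y-linked RNA as a term, Ctgf, Cyr61 and Tead1 were called as before, and the part of epidermal RNA in these differences was not tested.

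Within the sets, where 9.92% of genes were called in the lower and 9.96% in the upper, Cyr61 was called both times, at a log2 difference of 1.08 in the lower set (adjusted p = 0.0178) and 2.69 in the upper set (adjusted p = 0.0433, both edgeR). Ctgf had differences of 2.09 in the lower set (adjusted p = 0.0663) and 2.65 in the upper set (adjusted p = 0.0395, both edgeR). Tead1 was called in the lower set alone, at 1.34 (adjusted p = 0.00976) against 0.47 in the upper set (adjusted p = 0.214, both edgeR), and whether the sets differed was not tested. Yap1 had a difference of -0.02 in the lower set and -0.74 in the upper set (adjusted p = 0.0961, edgeR). With the set as a term, Ankrd1 also passed the test (2.56, adjusted p = 0.0206, edgeR), beside 23.9% of all genes.

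**Figure D2:**
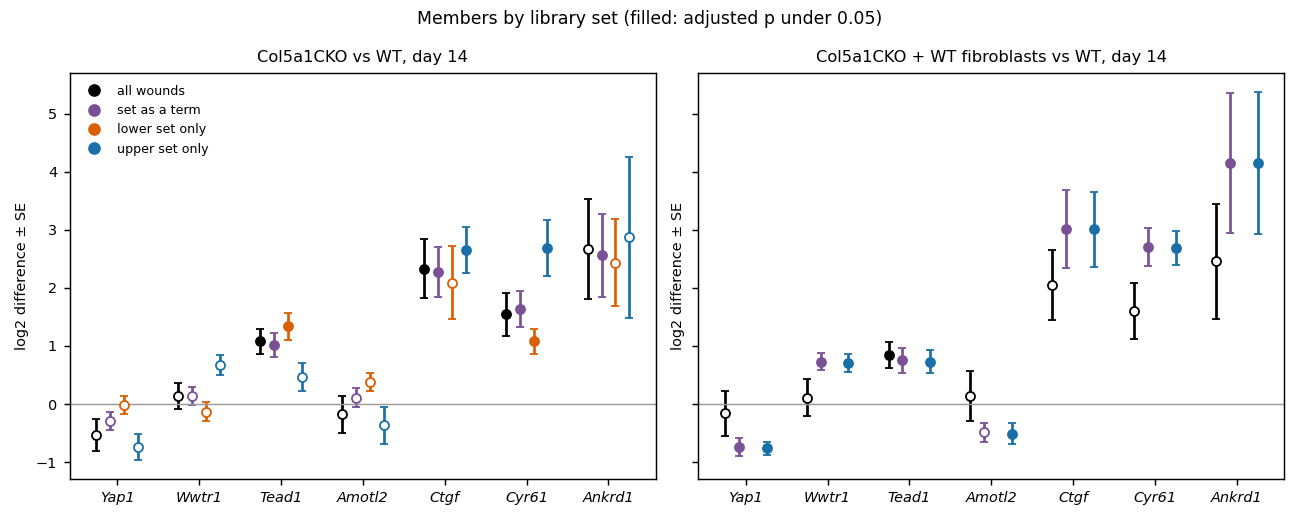
Fitted log2 differences ± SE of the 7 members at day 14 over all wounds, with the GC set as a term and within sets; filled points passed the test (adjusted p under 0.05, edgeR). Cyr61 is above 0 and filled in all 4 fits of Col5a1CKO against WT (left), and in Col5a1CKO + fibroblasts against WT (right) all 7 members are filled in the upper set, with Yap1 and Amotl2 below 0.

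The rest of the pathway was read from lists of Hippo kinases and adaptors, other TEAD factors and cofactors, other YAP and TAZ targets, genes of the parallel actin-sensing MRTF and SRF pathway, and other CCN family genes. Lats2 and Ptpn14 were on both the Hippo list and the list of other targets, and count in each. At day 14, 10.8% of all genes tested were called, 6.45% higher and 4.34% lower in Col5a1CKO wounds. Of 22 Hippo genes 5 were called, all higher in Col5a1CKO wounds, with a list median of 0.14 (log2) beside -0.03 over all genes. They included Sav1, the scaffold of the MST kinases, which rose 2.24-fold (log2 1.16 ± 0.17, SE, adjusted p = 0.00369, edgeR) without overlap between groups, Lats2 (0.96, adjusted p = 0.0154), Rassf1 (0.83, adjusted p = 0.0154) and the atypical cadherin Fat4 (1.86, adjusted p = 0.0377). Of 17 other target genes tested, 4 were called higher and none lower (median 0.39), among them Tgfb2, a TGFβ ligand (2.04, adjusted p = 0.00675), and Dock5, a Rac exchange factor (1.42, adjusted p = 0.00489). Of 12 MRTF and SRF genes, 5 were called higher and none lower (median 0.98). These included the focal adhesion gene Zyx (1.46, adjusted p = 0.0239), the actin crosslinker Actn1 (1.08, adjusted p = 0.013), the contractile actin Acta2 (1.80, adjusted p = 0.0442) and calponin, Cnn1 (3.24, adjusted p = 0.0495). None of 4 other TEAD factors and cofactors was called: Tead2 had a log2 difference of 0.87, Tead3 of -0.90 and Tead4 of -1.57. None of 3 other CCN genes tested was called. Marker lists moved in the same comparison, with 4 of 8 endothelial, 4 of 8 leukocyte, 3 of 8 smooth muscle and pericyte and 2 of 8 fibroblast markers called higher. The keratinocyte list had a median of -1.74 with none of 8 called, and the part of these cell types in the pathway lists was not tested.

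At day 19 the 3 target genes had their highest group means of the first table, in Col5a1CKO wounds. For Ankrd1 these wounds overlapped the day 14 Col5a1CKO wounds, where replicate c was at 50.7 CPM. Ctgf was at 909, 772 and 587 CPM in Col5a1CKO wounds and at 133, 31.2 and 54.7 CPM in WT wounds. Cyr61 was at 650, 519 and 686 CPM against 98.7, 47.8 and 112 CPM, and Ankrd1 at 58.3, 40.7 and 35.2 CPM against 6.39, 2.73 and 1.23 CPM. Every Col5a1CKO wound lay above every WT wound for these 3 genes, with fitted folds of 10.7, 7.40 and 13.5.

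Tead1 was at 183, 189 and 242 CPM in Col5a1CKO wounds and at 69.8, 64.8 and 92.0 CPM in WT wounds (2.81-fold). Amotl2 was at 158, 179 and 125 CPM against 75.9, 65.1 and 79.6 CPM (2.18-fold), and Wwtr1 at 155, 164 and 147 CPM against 84.6, 66.0 and 98.9 CPM (1.94-fold). The groups did not overlap for any of these genes, so 6 of 7 members were higher without overlap, beside 16.4% of all genes tested (18.4% were lower). Yap1 was at 119, 116 and 121 CPM in Col5a1CKO wounds and at 103, 167 and 91.1 CPM in WT wounds. The Yap1 groups overlapped and the log2 difference was 0.06 ± 0.22 (SE, adjusted p = 0.880, edgeR).

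With 3 wounds a group, none of the 7 was called in edgeR. The adjusted p was 0.110 for Ctgf, Cyr61, Ankrd1, Amotl2 and Tead1 and 0.122 for Wwtr1, in a comparison where edgeR called 0.0198% of 15135 genes tested, or 3 genes. Before adjustment, 1786 genes higher and 1866 lower had a p under 0.05. DESeq2 called all 6 members higher (adjusted p between 8.32e-10 for Cyr61 and 0.00431 for Wwtr1) and 1188 genes higher and 1121 lower in all, or 14.4%. Without WT replicate c, edgeR called 5 members, all but Yap1 and Ctgf (adjusted p = 0.0638 for Ctgf), and 7.18% of all genes. Fibroblast markers summed to 113662 to 154570 CPM in the Col5a1CKO wounds and to 12463 to 119287 CPM in the WT wounds, and smooth muscle and pericyte markers to 1120 to 2501 CPM and 456 to 736 CPM. All 3 Col5a1CKO wounds and 2 of the 3 WT wounds lacked Y-linked RNA. Of the pathway lists, Cnn1 alone was called (3.97, adjusted p = 0.0355, edgeR), while the list medians were 0.53 for Hippo genes, 0.69 for other targets and 1.35 for MRTF and SRF genes beside -0.01 for all genes. Acta2 had a difference of 2.35 (adjusted p = 0.11, edgeR).

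A joint fit of the 4 groups then tested whether the genotype difference itself changed from day 14 to day 19. No member had a difference that changed between days after adjustment over 15954 genes, where 0% of genes were called. The estimates of the change, day 19 minus day 14 on the log2 scale, were 1.28 ± 0.53 for Amotl2 (SE, adjusted p = 0.748), 1.32 ± 0.62 for Cyr61 (adjusted p = 0.84), 0.80 ± 0.38 for Wwtr1 (adjusted p = 0.84) and 1.08 ± 0.86 for Ctgf (adjusted p = 0.992, all edgeR). Before adjustment 448 genes had a larger and 491 a smaller difference at a p under 0.05, and DESeq2 called 26 and 19.

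Within Col5a1CKO mice, 3 members rose from day 14 to day 19. Ctgf rose 6.29-fold (log2 2.65 ± 0.50, SE, adjusted p = 0.0175) and Cyr61 2.97-fold (1.57 ± 0.25, adjusted p = 0.0120, both edgeR), each without overlap between the days. Amotl2 rose 1.97-fold with overlap (0.98 ± 0.26, SE, adjusted p = 0.0457, edgeR), since Col5a1CKO replicate g at day 14 stood at 136 CPM. The 3 calls, all higher, stand beside 7.84% of all genes called (2.71% higher and 5.12% lower), and 7.74% of genes were higher and 9.86% lower at day 19 without overlap. Tead1 (0.79, adjusted p = 0.116) and Ankrd1 (1.38, adjusted p = 0.253, both edgeR) were not called. None of the calls was left when any of the 3 day 19 wounds was left out, where 0% to 0.134% of all genes were called. The adjusted p was then 0.0681 to 0.0819 for Cyr61, 0.0681 to 0.1 for Ctgf and 0.112 to 0.194 for Amotl2 (edgeR). With sex by RNA as a term, the values were 0.0669, 0.0702 and 0.252 (edgeR), where 0.268% of all genes were called. All 3 day 19 wounds lacked Y-linked RNA. In this comparison 3 of 8 endothelial, 2 of 8 smooth muscle and pericyte and 1 of 8 fibroblast markers were called higher and none lower, and their part in the member differences was not tested. In the upper set alone, with 2 day 14 wounds, 0% of all genes were called. The differences there were 3.41 for Ctgf (adjusted p = 0.0808) and 1.64 for Cyr61 (adjusted p = 0.146, both edgeR).

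In WT mice, no member was called between day 14 and day 19, in a comparison where 5.86% of all genes were called (1.52% higher and 4.34% lower), and 7.55% were higher and 11.8% lower without overlap. Ctgf had a log2 difference of 1.65 (adjusted p = 0.131) and Wwtr1 of -0.92 (adjusted p = 0.163, both edgeR). In the upper set alone, where 35.9% of all genes were called, so were 4 members: Ctgf (2.71, adjusted p = 0.0182) and Cyr61 (1.52, adjusted p = 0.0357) were higher at day 19, and Yap1 (-0.80, adjusted p = 0.0312) and Amotl2 (-0.80, adjusted p = 0.015, all edgeR) were lower. Keratinocyte markers summed to 14205 to 25569 CPM in the 3 day 19 WT wounds, below the 3 day 14 WT wounds of that set. In Col5a1CKO mice 4 of 22 Hippo genes rose with time and none fell, beside 2.71% higher and 5.12% lower of all genes. Among them the protocadherin Dchs1 rose by 2.20 (adjusted p = 0.008) and Fat4 by 1.98 (adjusted p = 0.0257, both edgeR). In WT mice 1 Hippo gene rose and 2 fell, Mob1b (-2.04, adjusted p = 0.00531) and Taok1 (-1.51, adjusted p = 0.0227, both edgeR).

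**Figure D3:**
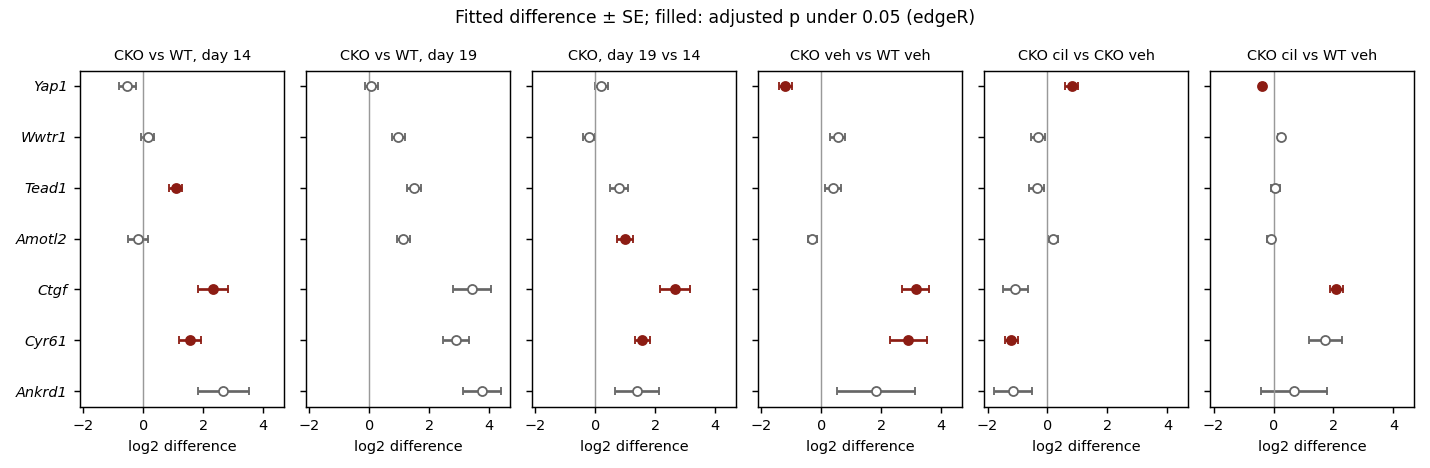
Fitted log2 differences ± SE of the 7 members in 6 comparisons, on the same scale; filled points passed the test (adjusted p under 0.05, edgeR). Ctgf and Cyr61 lie above 0 in each comparison of Col5a1CKO with WT wounds, and Yap1 lies at -1.20 with vehicle and at 0.81 for cilengitide against vehicle.

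The next comparison asked whether the members differed in day 14 Col5a1CKO wounds that had received WT fibroblasts. None of the members was called between Col5a1CKO + fibroblasts and Col5a1CKO wounds. Ctgf was at 52.3, 182 and 38.2 CPM with fibroblasts, Cyr61 at 177, 254 and 159 CPM, and Tead1 at 77.5, 104 and 89.2 CPM. Each group of 3 overlapped the 7 Col5a1CKO wounds, where 0.364% of genes were higher and 1.7% lower with fibroblasts without overlap. The log2 differences were -0.40 for Ctgf, -0.08 for Cyr61, -0.35 for Ankrd1, -0.38 for Tead1, -0.17 for Wwtr1, 0.24 for Yap1 and 0.20 for Amotl2 (adjusted p of 0.570 to 0.905, edgeR). edgeR called no gene at all, or 0%, with 201 higher and 1800 lower at a p under 0.05 before adjustment, and DESeq2 called 9 and 10 genes. Over replicates a to c alone, where the fibroblast wounds are in the upper and the Col5a1CKO wounds in the lower GC set, edgeR called 20.7% of genes with the replicate block and 31.6% without it, but still none of the members.

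Against WT wounds, the Col5a1CKO + fibroblasts wounds had 1 member called, Tead1, beside 6.09% of all genes (3.89% higher and 2.19% lower). Tead1 was 1.79-fold higher without overlap (log2 0.84 ± 0.22, SE, adjusted p = 0.0475, edgeR). Its adjusted p was 0.0528 with summed rows, 0.0654 with DESeq2 size factors, 0.0746 without the filter, 0.115 with sex by RNA as a term and 0.133 to 0.236 without 1 of the fibroblast wounds, and DESeq2 called it (0.00273). Cyr61 was also without overlap but not called (3.04-fold, 1.60 ± 0.48, adjusted p = 0.0730), beside 10% of genes that were higher and 10.1% lower without overlap, and Ctgf was 4.15-fold higher with overlap (2.05 ± 0.60, adjusted p = 0.0699, both edgeR). All 3 fibroblast wounds were in the upper GC set. Against the 3 WT wounds of that set 47% of all genes were called, and all 7 members passed the test: Cyr61 (2.69, adjusted p = 0.000622), Ctgf (3.01, adjusted p = 0.0119), Ankrd1 (4.15, adjusted p = 0.0368), Tead1 (0.73, adjusted p = 0.0216) and Wwtr1 (0.71, adjusted p = 0.00805) were higher. Yap1 (-0.76, adjusted p = 0.00206) and Amotl2 (-0.51, adjusted p = 0.0486, all edgeR) were lower there. Within replicates a to c as pairs, where group and GC set cannot be told apart since these WT wounds are all in the lower set, the replicate block called Cyr61 alone (1.04, adjusted p = 0.0129, against 0.0769 for Tead1, edgeR), beside 24.3% of all genes. Without the block the same wounds gave Amotl2 and Tead1 as called higher (adjusted p = 0.0326 for Tead1, edgeR), beside 29.9% of all genes. Keratinocyte markers summed to 11875 to 29486 CPM in the fibroblast wounds and none of 8 was called against WT, while 4 of 8 endothelial and 4 of 8 leukocyte markers were called higher (medians 1.63 and 1.69, log2). Their part in the member differences was not tested. Of 12 MRTF and SRF genes, Zyx (2.58, adjusted p = 0.000421) and Actn1 (1.59, adjusted p = 0.0175) were called higher than in WT, as were 3 of the other target genes and 2 Hippo genes, with none lower.

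The second table repeated the day 14 comparison of genotypes in the vehicle groups of the cilengitide experiment. Ctgf and Cyr61 rose again, 8.84-fold and 7.48-fold, and Yap1 fell to 0.435 of its WT level. All 3 were called without overlap between the groups, in a comparison where 48.3% of all genes were called (23.8% higher and 24.5% lower). The 7 members were thus called no more often than all genes. Without overlap, 23.4% of genes were higher and 26.1% lower.

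Ctgf was at 15.0, 18.5, 13.8 and 10.6 CPM in WT + vehicle wounds and at 72.3, 157, 64.5 and 224 CPM in Col5a1CKO + vehicle wounds (log2 3.14 ± 0.45, SE, adjusted p = 0.00161, edgeR). Cyr61 was at 54.7, 64.3, 17.1 and 9.88 CPM in WT + vehicle and at 185, 305, 367 and 244 CPM in Col5a1CKO + vehicle wounds (2.90 ± 0.62, adjusted p = 0.00718, edgeR). Yap1 was at 162, 151, 161 and 181 CPM in WT + vehicle and at 100, 80.4, 50.2 and 56.8 CPM in Col5a1CKO + vehicle wounds (-1.20 ± 0.23, adjusted p = 0.00442, edgeR). For each of these genes the lowest wound of the higher group stood clear of the highest wound of the other. Ankrd1 was at 16.3, 1.27, 0.346 and 0.572 CPM in WT + vehicle and at 9.35, 19.9, 2.80 and 33.3 CPM in Col5a1CKO + vehicle wounds. WT + vehicle replicate 1 stood above 2 of the Col5a1CKO + vehicle wounds, and the difference was 1.81 ± 1.30 with it (log2, SE, adjusted p = 0.276) and 4.44 without it (adjusted p = 0.0133, both edgeR). Wwtr1 (0.54, adjusted p = 0.119), Tead1 (0.39, adjusted p = 0.260) and Amotl2 (-0.31, adjusted p = 0.116, all edgeR) overlapped between the groups and were not called.

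Around the members, 7 Hippo genes were called higher and 4 lower of 22 in the vehicle comparison. Of all genes, 48.3% were called (23.8% higher and 24.5% lower), so the Hippo list was called about as often as all genes. Sav1 (1.16, adjusted p = 0.000858), Taok3 (1.14, adjusted p = 0.00147), Rassf1 (1.23, adjusted p = 0.00207) and Lats2 (1.34, adjusted p = 0.0037, all edgeR) rose. Nf2, the upstream activator of the LATS kinases, fell by 0.81 (adjusted p = 0.00274), and Ptpn14, which binds YAP, fell by 1.77 (adjusted p = 0.00442, both edgeR). The TEAD paralogues went in opposite directions: Tead3 (-1.48, adjusted p = 0.000708) and Tead4 (-2.75, adjusted p = 0.00254) were lower and Tead2 (1.38, adjusted p = 0.0217, all edgeR) was higher. Of 18 other targets, 8 were called higher and 1 lower, the last being Ptpn14 as above. That list too was called about as often as all genes, with most of its calls higher. The higher ones included Lats2 as above and Nt5e (2.41, adjusted p = 0.00392, edgeR), which encodes the ectonucleotidase CD73. Of 12 MRTF and SRF genes, 8 were called higher and none lower (median 1.31), with Cnn1 at 5.19 (adjusted p = 0.00391), Acta2 at 3.14 (adjusted p = 0.013) and Zyx at 2.16 (adjusted p = 0.00103, all edgeR). Wisp1, another CCN gene, was higher by 2.56 (adjusted p = 0.0305, edgeR). Keratinocyte markers summed to 60573 to 98195 CPM in WT + vehicle and 71.3 to 11974 CPM in Col5a1CKO + vehicle wounds, with 4 of 8 called lower, and leukocyte markers to 388 to 2800 CPM and 4774 to 47797 CPM, with 6 of 8 called higher and 1 lower. Of 8 markers each, 4 endothelial, 3 fibroblast and 2 smooth muscle and pericyte markers were also called higher and none lower. Of 5 adipocyte markers tested, 1 was called lower. Their part in the member differences was not tested.

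**Figure D4:**
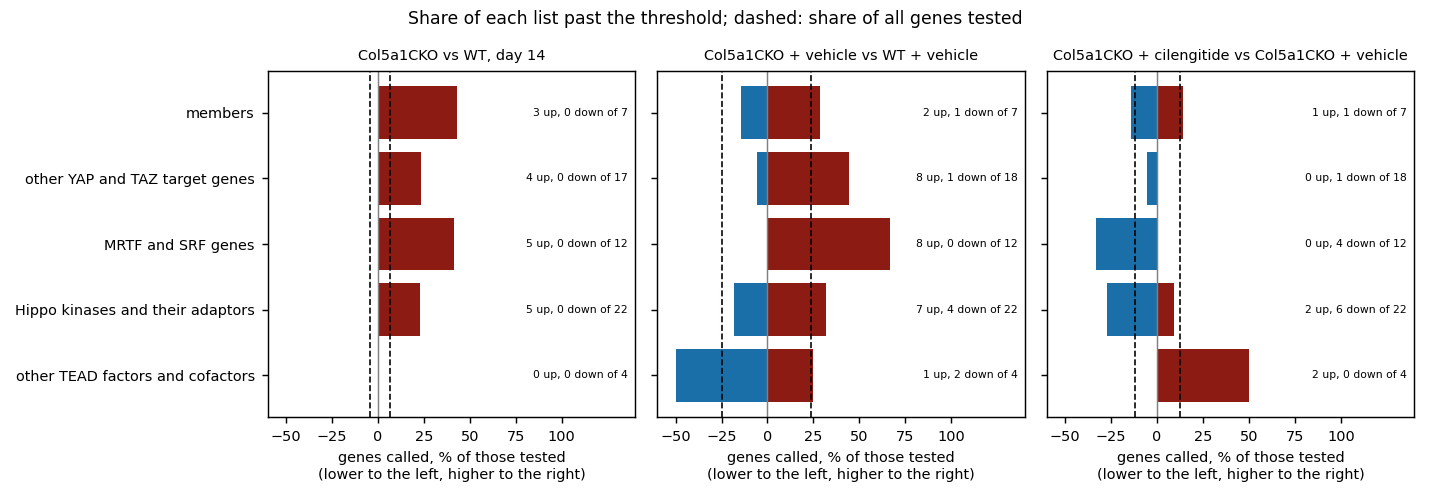
Percentage of tested genes called higher (right of 0) or lower (left of 0) in each list in 3 comparisons, at an adjusted p under 0.05 in edgeR; dashed lines mark the percentages over all genes tested. In the vehicle comparison 8 of 12 MRTF and SRF genes are higher and none lower, and against vehicle 4 of the 12 are lower with cilengitide.

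Cilengitide was then compared with vehicle in Col5a1CKO mice, which asks how the members stood when αv integrins were inhibited. Cyr61 fell to 0.432 of its vehicle level and Yap1 rose 1.75-fold, opposite to their differences between Col5a1CKO + vehicle and WT + vehicle. These 2 members were called, beside 24.9% of all genes (12.7% higher and 12.2% lower). The comparisons share the Col5a1CKO + vehicle wounds.

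Cyr61 was at 122, 114, 119 and 127 CPM with cilengitide, below all 4 Col5a1CKO + vehicle wounds (log2 -1.21 ± 0.22, SE, adjusted p = 0.0101, edgeR). Yap1 was at 129, 125, 130 and 122 CPM with cilengitide, above all 4 Col5a1CKO + vehicle wounds (0.81 ± 0.21, adjusted p = 0.0298, edgeR). Beside these, 18.9% of genes were higher and 12.7% lower without overlap. Without cilengitide replicate 1, 2 or 3, or without Col5a1CKO + vehicle replicate 3, the adjusted p for Yap1 was 0.0643 to 0.0691 (edgeR). In these fits 11.6% to 13% of all genes were called. With sex by RNA as a term the adjusted p for Yap1 was 0.05 (edgeR) and no longer passed, beside 21% of all genes. Cilengitide replicates 2 and 3 and Col5a1CKO + vehicle replicate 2 lacked Y-linked RNA. That vehicle wound had only 1.01 CPM of Xist, an RNA of female cells, against 186 and 139 CPM in those cilengitide wounds. The term followed Y-linked RNA alone, so the sex of that wound was not settled. Ctgf was at 54.3, 81.2, 44.9 and 67.9 CPM with cilengitide and overlapped the vehicle wounds (-1.08 ± 0.42, adjusted p = 0.0965, edgeR), and DESeq2 called it (-1.06, adjusted p = 0.0497). Ankrd1 was at 8.20, 8.41, 4.50 and 8.55 CPM (-1.15, adjusted p = 0.220, edgeR). Wwtr1 (-0.32, adjusted p = 0.353), Tead1 (-0.36, adjusted p = 0.334) and Amotl2 (0.19, adjusted p = 0.450, all edgeR) also overlapped. The 4 cilengitide wounds lay close together, with SDs of 3.49 CPM for Yap1 and 5.62 CPM for Cyr61 against 22.9 and 78.7 CPM in Col5a1CKO + vehicle wounds.

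Set against WT + vehicle wounds, Ctgf was 4.30-fold higher with cilengitide (2.10 ± 0.22, adjusted p = 0.0150) and Yap1 was at 0.775 of the WT level (-0.37 ± 0.08, adjusted p = 0.0252, both edgeR), beside 20.5% of all genes called (9.53% higher and 11% lower). Both were without overlap, as was Cyr61 (3.32-fold, adjusted p = 0.0569, edgeR), beside 14.4% of genes higher and 15.6% lower without overlap. Without cilengitide replicate 2, 3 or 4, the adjusted p was 0.0517 to 0.0556 for Ctgf and 0.0635 to 0.0646 for Yap1 (edgeR). In those fits 0.00635% to 0.0191% of all genes were called. Without WT + vehicle replicate 3 the adjusted p was 0.0543 for Yap1 (edgeR), beside 3.41% of all genes. Ankrd1, not called over all wounds, had a difference of 3.34 without WT + vehicle replicate 1 (adjusted p = 0.0284, edgeR). Thus Yap1 and Cyr61 with cilengitide lay between both vehicle groups with no overlap on either side. Keratinocyte markers, at 32993 to 67652 CPM, lay above all Col5a1CKO + vehicle wounds and reached the WT + vehicle range (60573 to 98195 CPM) in replicate 1 alone. Against Col5a1CKO + vehicle, 3 of 8 were called higher, and 5 of 8 leukocyte markers (4431 to 8633 CPM) were called lower. In the same comparison 1 fibroblast and 1 endothelial marker were called lower and 1 adipocyte marker higher. The list medians were -0.39 for fibroblast and -0.63 for endothelial markers (log2). Against WT + vehicle, 3 keratinocyte markers were called lower and 1 higher, and 1 adipocyte marker lower. Called higher than in WT + vehicle were 4 leukocyte, 2 fibroblast and 1 smooth muscle and pericyte marker. How far these cell types entered the member differences was not tested.

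Of 22 Hippo genes, 6 were lower with cilengitide than with vehicle and 2 higher, beside 12.2% lower and 12.7% higher of all genes. Among the lower were Stk3, an MST kinase (-0.72, adjusted p = 0.00723), Sav1 (-0.70, adjusted p = 0.0123) and Lats2 (-0.84, adjusted p = 0.0155, all edgeR). Tead3 (0.82, adjusted p = 0.0101) and Tead4 (1.56, adjusted p = 0.0332, both edgeR) were higher. Of 12 MRTF and SRF genes 4 were lower and none higher, namely Cnn1 (-1.27, adjusted p = 0.0193), Zyx (-1.06, adjusted p = 0.0255), Tagln (at 0.501 of its vehicle level, adjusted p = 0.0366) and Myl9 (-0.59, adjusted p = 0.0403, all edgeR). Against WT + vehicle, 6 of these 12 were called higher with cilengitide, beside 9.53% higher and 11% lower of all genes. Among the 6, Cnn1 was at 3.96 (adjusted p = 0.0263) and Flna at 1.05 (adjusted p = 0.0282, both edgeR).

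**Figure D5:**
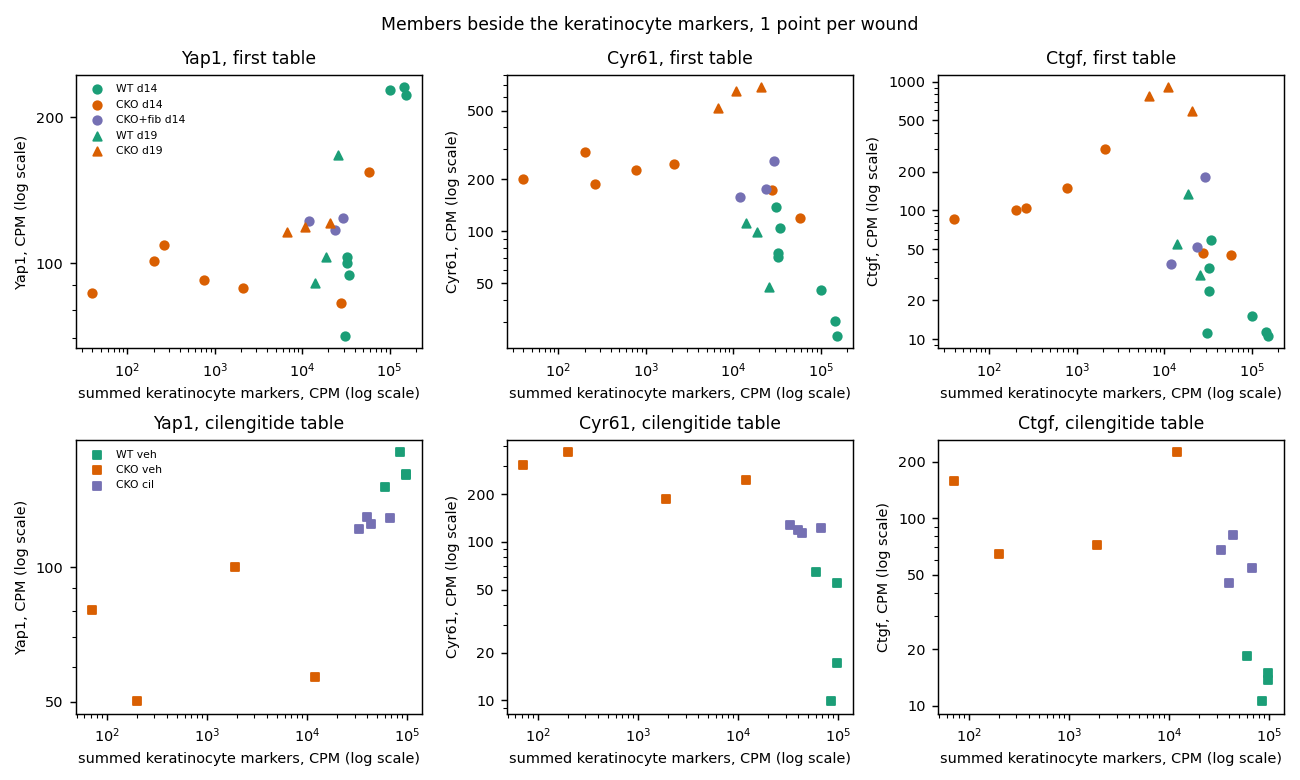
Level of Yap1, Cyr61 and Ctgf (CPM, log axis) against the summed level of 8 keratinocyte markers (CPM, log axis), 1 point per wound, in the first table (top) and the cilengitide table (bottom). In the cilengitide table the WT + vehicle wounds have the highest Yap1 and lowest Cyr61 at 60573 to 98195 CPM of keratinocyte markers, and in the first table the 3 day 19 Col5a1CKO wounds hold the highest Cyr61 at 6639 to 20922 CPM of keratinocyte markers.

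Across the first table, the order of mean Cyr61 levels was day 19 Col5a1CKO (618 ± 87.6 CPM, SD, n = 3), day 14 Col5a1CKO (206 ± 54.2, n = 7), Col5a1CKO + fibroblasts (197 ± 50.1, n = 3), day 19 WT (86.0 ± 33.7, n = 3) and day 14 WT (69.9 ± 41.1, n = 7). The first was clear of the second without overlap and Col5a1CKO + fibroblasts was clear of day 19 WT, whereas the other neighbours overlapped. For Ctgf, day 19 Col5a1CKO (756 ± 162 CPM, SD, n = 3) was clear of day 14 Col5a1CKO (119 ± 88.3, n = 7), and the 4 groups after it overlapped in turn down to day 14 WT (23.7 ± 17.8, n = 7). Amotl2 was highest in day 19 Col5a1CKO wounds (154 ± 26.9 CPM, SD, n = 3), which overlapped the day 14 WT and day 14 Col5a1CKO wounds and lay above all wounds of the other 2 groups. Wwtr1 was lowest in day 19 WT wounds (83.2 ± 16.5 CPM, SD, n = 3). Yap1 had its highest mean in day 14 WT wounds (150 ± 72.9 CPM, SD, n = 7), and its means in the other 4 groups were 102 to 121 CPM. In the cilengitide table Yap1 went from 164 ± 12.7 CPM with WT + vehicle through 127 ± 3.49 with cilengitide to 71.9 ± 22.9 with Col5a1CKO + vehicle (SD, n = 4 each), while Ctgf went from 14.5 ± 3.27 through 62.1 ± 15.9 to 130 ± 75.9 CPM.

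The members themselves fell into patterns across wounds, described here by Pearson's r of log2(CPM + 1) over the 23 wounds of the first table and the 12 of the second, which share genotype, library set and tissue make-up. Ctgf and Cyr61 had r of 0.88 and 0.87, and Ankrd1 followed Ctgf at 0.88 and 0.76. Yap1 ran against Cyr61, at -0.54 and -0.83, and with Amotl2, at 0.66 and 0.70. Other genes were drawn from 11493 with a mean of at least 5 CPM in both tables, a number that includes the members. Those most like Ctgf in both tables were the fibronectin receptor subunit Itga5 (0.90 and 0.90), Tgfb2 (0.87 and 0.85) and filamin A, Flna (0.89 and 0.85). Those most like Cyr61 were Angptl2 (0.92 and 0.94), S1pr1 (0.91 and 0.97) and Arhgap31 (0.90 and 0.93). Ankrd1 was most like the smooth muscle myosin Myh11 (0.82 and 0.79), Epha3 (0.76 and 0.78) and Adam19 (0.75 and 0.76). Yap1 was most like Letm1 (0.93 and 0.92), Kctd15 (0.92 and 0.94) and Osbpl5 (0.91 and 0.98), Amotl2 most like the dystroglycan gene Dag1 (0.89 and 0.86), Wwtr1 most like Sec23a (0.87 and 0.88) and Tead1 most like BC018507 (0.85 and 0.82).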

How the data were processed

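Per the study's methods, stranded libraries were sequenced and reads mapped with Hisat2 to NCBI37/mm9 and counted over RefSeq exons in SeqMonk; whether this also holds for the cilengitide table is not given in the sources used here. The authors deposited raw counts per gene for 23 wounds in the first table and 12 in the second. Rows without a gene name held at most 0.0694% of a wound's counts and were left out, and 1 row per symbol was kept (22830 symbols), that with the largest total. Each pair of groups was fitted alone over the whole table with edgeR 4.0.16 in R 4.3.3 (TMM scaling, filterByExpr at 10 counts, quasi-likelihood F test with robust priors), with Benjamini-Hochberg adjustment over all genes tested and calls at an adjusted p under 0.05. CPM used TMM library sizes, and RPKM the kept transcript's length and the unscaled total over all RefSeq rows, which counts a gene once for each of its rows. The tables were normalized separately, so levels were tested only within a table. Alternatives were DESeq2 1.42.0, its size factors, no filter, summed rows, a 2-fold minimum, GC sets, replicate blocks and, for groups of 3 or 4 wounds, each replicate left out; sex by RNA and replicates a to c without the block were added after the data were seen. The fit was tested on simulated data. Figures used matplotlib 3.10.9.

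GC sets came from genes in the highest and lowest 10% of GC content with a mean of at least 5 CPM, split at the widest gap between wounds. Replicate letters were read as pairs only for Col5a1CKO + fibroblasts against WT. There the deviations of same-lettered wounds from their group means had r of 0.163 to 0.502 in all 3 pairs, and 2 of 3 letters correlated best with their own. No label says that a letter marks a shared animal or day, so the pairing is not settled. Named genes were the 7 members, the 3 genes most like each in both tables (up to 3 printed), up to 4 called genes per list with the smallest adjusted p, and a few further list genes such as Lats2, Tead2 and Acta2. The members, lists and rules were chosen with earlier results of these data known.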

Additional observations from a re-analysis of the deposited data

Results flagged for a closer look

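In groups of 4 to 10 wounds, a member's value was looked at again when its highest or lowest wound stood far from the others by Dixon's criterion. Of 35 groups of values tested, 6 met it, and chance alone would give about 1 in 20. Ankrd1 was at 16.3 CPM in WT + vehicle replicate 1, against 1.27 CPM in the next wound, a gap of 0.942 of the range. Ankrd1 was at 4.5 CPM in cilengitide replicate 3, against 8.2 CPM in the next (0.914 of the range). Tead1 was at 101 CPM in cilengitide replicate 4, against 74.7 CPM (0.939 of the range). In the day 14 Col5a1CKO group, replicate g stood apart for Yap1 at 154 CPM (the next wound 109 CPM, 0.630 of the range) and for Amotl2 at 136 CPM (the next 76.7 CPM, 0.775). That wound also had the highest keratinocyte markers of its group, 58630 CPM. Ctgf was at 302 CPM in day 14 Col5a1CKO replicate c, against 149 CPM in the next wound (0.596 of the range).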

How the results depend on the processing

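Of 720 member values recomputed under another setting, 598 kept their direction and their side of the threshold. Another 40 kept their direction but lost the call, and 42 gained it. A further 39 changed direction with no call in either fit, and 1 reversed, changing direction with a call in at least 1 of the fits. For list genes the numbers were 1384, 203, 43, 75 and 4 of 1709. At day 19, DESeq2 called 6 members of Col5a1CKO against WT where edgeR called 0. For Col5a1CKO + fibroblasts against WT, 1 member was called as reported, beside 6.09% of all genes. A 2-fold minimum, DESeq2 size factors, no filter, summed rows and sex as a term each gave 0. The share of all genes called was 6.17% with size factors, 4.5% with no filter, 6% with summed rows and 1.64% with sex as a term. DESeq2 gave 3, the GC set as a term 6, the upper set 7 and replicates a to c without the block 2. In these 4 fits the share was 16.5%, 20.9%, 47% and 29.9%, in that order. For WT over time (0 called), the set as a term and the upper set each gave 4, with 16.6% and 35.9% of all genes called against 5.86%. For Col5a1CKO over time (3 called), the set as a term gave 1 and the upper set and sex as a term each gave 0. The share of all genes called was 3.07%, 0% and 0.268% in these, against 7.84%. For cilengitide against vehicle (2 called), a 2-fold minimum and sex as a term each gave 1, and against WT + vehicle (2 called) a 2-fold minimum gave 1. The cause of these changes was not tested. Next, 1 wound at a time was left out from groups of 3 or 4, but none from the groups of 7. The share of all genes called is given in brackets. Day 19 gave 0 to 5 members (0% to 7.18%). Fibroblasts against Col5a1CKO gave 0 (0%), and against WT 0 (1.8% to 2.51%). WT over time gave 0 (0.581% to 3.86%) and Col5a1CKO over time 0 (0% to 0.134%). The genotypes with vehicle gave 3 to 4 (37.7% to 50.6%). Cilengitide against vehicle gave 1 to 2 (11.6% to 32.8%), and against WT + vehicle 0 to 3 (0.00635% to 23.3%). Reversed values were, in Col5a1CKO + fibroblasts against WT, Amotl2 in the upper set (-0.51, adjusted p = 0.0486, edgeR) and Amot with the set as a term (2.31, adjusted p = 0.0199) and in the upper set (2.28, adjusted p = 0.00766), and, in WT over time in the upper set, Amot (1.73, adjusted p = 0.0495) and Tagln (1.39, adjusted p = 0.0302, edgeR). Elsewhere the letters were not read as pairs. With the replicate block, 3 members were called in Col5a1CKO against WT at day 14, as without it. At day 19 and in fibroblasts against Col5a1CKO 0 were called, also as without it. Over replicates a to c of the last comparison, 3131 genes were called with the block and 4794 without it. Same-lettered wounds deviated from their group means with a mean r of 0.185, -0.389 and 0.097 in these 3 comparisons. In them 1 of 7, 0 of 3 and 2 of 3 letters correlated best with their own, the last as in fibroblasts against WT. Depth was lowest for Ankrd1, which rested on 3 counts in each of WT replicates e and f at day 14.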
